A study of Mus musculus with 11 samples.

Results

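Expression of 9 genes of polyamine metabolism was compared between the colons of germ-free and humanized mice. The genes were taken by symbol from the gene count table, and all 9 were found among its 43346 genes and passed the low-expression filter. Colonic tissue came from male Swiss Webster mice of 8 to 10 weeks, 5 of them germ-free and 6 humanized. Humanized mice had been raised germ-free and were given 300 μL of stool suspension from 1 healthy human donor by gavage at 4 to 5 weeks of age, so every humanized mouse carried the microbiota of the same donor. Both groups were otherwise of the same strain, with no transgene or drug, and messenger RNA of whole colonic tissue was sequenced. Gene counts were normalized with TMM (the trimmed mean of M-values, which scales libraries so that most genes do not change) and given as RPKM, a level scaled by the deposited gene length and by library size. A positive log2-fold change (LFC) means higher expression with the microbiota, and genes at FDR below 0.01 in edgeR's exact test were called differentially expressed. Between 49097005 and 64148538 counts on genes were recorded per germ-free mouse and between 39125290 and 54219854 per humanized mouse.

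Polyamines are small positively charged molecules that bind nucleic acids and are needed for cell growth, and the colonic epithelium, which renews continuously, both makes them and takes them up from the lumen, where bacteria also produce them. Ornithine decarboxylase (Odc1) converts ornithine to putrescine. Spermidine synthase (Srm) and spermine synthase (Sms) then extend putrescine to spermidine and spermine, with a donor group supplied by S-adenosylmethionine decarboxylase (Amd1). In the other direction, spermine oxidase (Smox) converts spermine back to spermidine, and spermidine/spermine acetyltransferase (Sat1) acetylates polyamines for export or for oxidation by Paox. Antizyme (Oaz1) binds ornithine decarboxylase and delivers it to the proteasome, and the antizyme inhibitor Azin1 binds antizyme in its place.

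Of the 9 genes, Sat1 and Smox rose with the microbiota at FDR below 0.01, and none fell, so 2 were called in either direction, where 19.3% of all genes tested were called. The increase was 1.38-fold for Sat1 and 1.39-fold for Smox. Thus 2 of 9 genes were higher, where 9.2% of the 19863 genes tested were higher, and 0 of 9 were lower, where 10.1% of all genes were lower. At an unadjusted p below 0.05, 3 genes were higher and 1 was lower in the exact test, where 18.5% and 19.0% of all genes were, and edgeR's quasi-likelihood test and DESeq2 gave the same numbers, with 0 lower at FDR below 0.01. Germ-free and humanized values lay apart for 1 of the 9 genes, Sat1, against 18.4% of all genes tested. The median LFC of the 9 genes was 0.18, against 0.01 for all genes tested and 0.24 for 12 marker genes of the epithelium. The plot of expression by mouse shows the genes side by side.

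**Figure D1:**
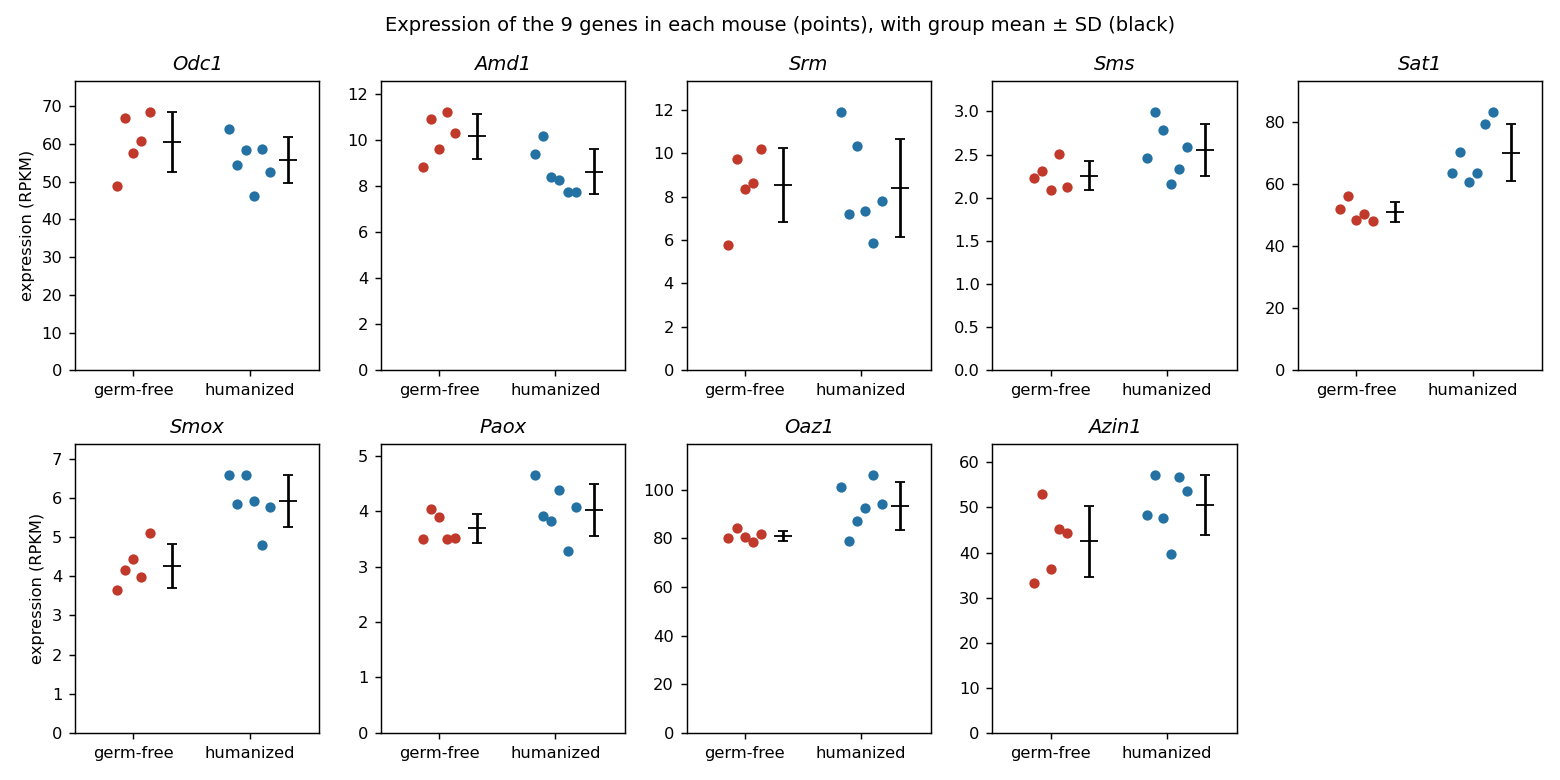
Expression in RPKM (vertical axis, from 0) of the 9 genes in each of 5 germ-free (red) and 6 humanized (blue) mice, with the mean ± SD of each group in black. The groups are apart for Sat1, with germ-free mice up to 56.2 RPKM and humanized mice from 60.7 RPKM, and overlap for the other 8 genes.

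Sequences are shown for a site by which polyamines act on a member of this group, and for the start regions of both catabolic genes that rose and of Odc1, which did not pass the test. Synthesis of antizyme requires the ribosome to shift frame at a stop codon, which polyamines promote, so RNA of Oaz1 does not by itself give the amount of antizyme. The site lies in the coding sequence at chr10:80828280-80828309, plus strand of GRCm38. In 3 annotated coding transcripts of Oaz1, base 80828295, the first of the stop codon, is left out to join both frames. Read without the shift, the frame from the annotated start codon ends there after 66 codons. Capitals mark the last codon of this frame with the stop codon.
Oaz1 frameshift site: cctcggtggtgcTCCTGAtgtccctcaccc

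Windows of 250 bases before to 50 bases after the annotated start were found for 7 of the 9 genes in RefSeq (GRCm38.p6), and not for Srm and Azin1. Both strands were searched for the E-box CACGTG, the antioxidant response element core TGACNNNGC, the AP-1 site TGANTCA, the CCAAT box, the TATA box as TATAAA and the GC box GGGCGG. Of 32851 windows of this length, 7.15%, 12.4%, 7.81%, 37.4%, 13.6% and 35.7% held these motifs, in that order. The window of Sat1 (chrX:155216400-155216699, minus strand) held 2 GC boxes, that of Smox (chr2:131491612-131491911, plus strand) held 6 GC boxes and 1 antioxidant response element core, and that of Odc1 (chr12:17544623-17544922, plus strand) held 4 GC boxes. None of the other searched motifs was found in these windows. Capitals mark the GC boxes and the antioxidant response element core, on either strand.
Sat1: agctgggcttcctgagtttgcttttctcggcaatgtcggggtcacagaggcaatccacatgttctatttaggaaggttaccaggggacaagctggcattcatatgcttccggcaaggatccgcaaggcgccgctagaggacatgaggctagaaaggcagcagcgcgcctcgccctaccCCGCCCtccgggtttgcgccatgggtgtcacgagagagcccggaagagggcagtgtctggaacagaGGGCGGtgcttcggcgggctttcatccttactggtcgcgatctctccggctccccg
Smox: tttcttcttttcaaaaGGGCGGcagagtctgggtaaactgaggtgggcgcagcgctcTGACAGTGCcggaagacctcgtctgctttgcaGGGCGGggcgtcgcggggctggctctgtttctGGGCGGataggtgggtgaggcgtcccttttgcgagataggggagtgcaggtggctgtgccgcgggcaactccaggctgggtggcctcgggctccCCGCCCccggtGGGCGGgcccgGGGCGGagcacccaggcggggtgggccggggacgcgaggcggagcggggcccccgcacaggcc
Odc1: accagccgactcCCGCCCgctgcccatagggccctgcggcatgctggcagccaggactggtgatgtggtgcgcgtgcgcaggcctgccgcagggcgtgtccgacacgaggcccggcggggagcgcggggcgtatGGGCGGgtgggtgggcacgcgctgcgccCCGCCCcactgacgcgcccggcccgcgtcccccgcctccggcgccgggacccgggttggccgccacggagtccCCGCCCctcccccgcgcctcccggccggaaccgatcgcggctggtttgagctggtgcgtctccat

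The content of G and C was 60.3% for Sat1, 71.0% for Smox and 78.0% for Odc1, at the 72.2, 92.2 and 98.2 percentiles of all windows. The window of Odc1 held 42 CpG dinucleotides, against 21 for Sat1 and 27 for Smox.

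The enzymes that build polyamines showed no difference at FDR below 0.01. Odc1, on chromosome 12 from 17544873 to 17551502, is the rate-limiting enzyme of the pathway and was abundant in both groups. Germ-free mice had 48.9, 66.9, 57.6, 60.8 and 68.5 RPKM, and humanized mice ranged from 46.3 RPKM over a median of 56.5 to 64.0 RPKM. The groups overlapped over most of their range. Odc1 had 60.5 ± 7.87 RPKM in the germ-free and 55.8 ± 6.09 RPKM in the humanized group (LFC −0.12, 95% interval −0.33 to 0.09, FDR = 0.457).

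Amd1, on chromosome 10 from 40287458 to 40302188, was lower on average in humanized mice. It had 8.82, 10.9, 9.63, 11.2 and 10.3 RPKM in germ-free mice and from 7.76 RPKM over a median of 8.33 to 10.2 RPKM in humanized mice. Only humanized mice 1 and 2 reached the range of the germ-free group. The difference did not pass the FDR threshold (10.2 ± 0.978 against 8.63 ± 0.974 RPKM, LFC −0.24, standard error 0.09, FDR = 0.0665). Amd2, a close copy of Amd1 with which it can share reads, had 2.45 ± 0.270 RPKM in the germ-free and 1.89 ± 0.291 RPKM in the humanized group (LFC −0.37, FDR = 0.0597), and its counts came to 23.1% of those of Amd1.

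Srm, on chromosome 4 from 148591503 to 148594993, varied most between mice of a group among the synthesis genes. It ranged from 5.79 to 10.2 RPKM in germ-free mice and from 5.86 to 11.9 RPKM in humanized mice (LFC −0.02, 95% interval −0.43 to 0.38, FDR = 0.953). Sms, on chromosome X from 157443855 to 157492287, was the least abundant of the 9 genes, with 2.25 ± 0.169 RPKM in the germ-free and 2.55 ± 0.303 RPKM in the humanized group (LFC 0.18, 95% interval −0.02 to 0.38, FDR = 0.271).

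Of the enzymes that break polyamines down, Sat1 and Smox passed the test and Paox did not, and differences between these genes were not tested. Sat1, on chromosome X from 155213132 to 155216449, had 51.9, 56.2, 48.3, 50.3 and 48.3 RPKM in germ-free mice 1 to 5, and humanized mice ranged from 60.7 RPKM over a median of 67.1 to 83.3 RPKM. Every humanized mouse was above every germ-free mouse, and humanized mice 5 and 6 were the highest. Its mean rose from 51.0 ± 3.28 RPKM to 70.2 ± 9.32 RPKM (LFC 0.46, standard error 0.09, FDR = 5.25e-05 in edgeR's exact test). A two-sided exact permutation test over all ways of dividing the mice gave p = 0.00216, the smallest that 5 mice against 6 allow.

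Smox, on chromosome 2 from 131491496 to 131525922, changed by about as much at a far lower level. Germ-free mice had 3.64, 4.16, 4.43, 3.97 and 5.11 RPKM, and humanized mice ranged from 4.79 RPKM over a median of 5.88 to 6.59 RPKM. The groups overlapped only through germ-free mouse 5 and humanized mouse 5. The mean rose from 4.26 ± 0.557 to 5.92 ± 0.660 RPKM (LFC 0.47, standard error 0.10, FDR = 8.48e-04, exact permutation p = 0.00649). Paox, which acts on the products of Sat1 and lies on chromosome 7 from 140125657 to 140134334, did not pass the test, with 3.69 ± 0.263 RPKM in the germ-free and 4.03 ± 0.474 RPKM in the humanized group (LFC 0.13, 95% interval −0.11 to 0.36, FDR = 0.569).

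The calls of Sat1 and Smox depended on how libraries were scaled. With total counts in place of TMM, the LFC was 0.27 for Sat1 (FDR = 0.0134) and 0.29 for Smox (FDR = 0.0845) in the exact test, and scaled to 12 epithelial marker genes it was 0.20 (FDR = 0.169) and 0.25 (FDR = 0.239). Amd1 passed the threshold as lower in both, with an LFC of −0.42 (FDR = 7.24e-04) and −0.47 (FDR = 0.00791). Its close copy Amd2 was also called in both. Both scalings move all genes downwards, since the median LFC of all genes was −0.18 and −0.24 under them. Relative to that median, Sat1 was higher by 0.45 and 0.44, Smox by 0.47 and 0.49, and Amd1 was at −0.25 and −0.23, close to their values under TMM. This closeness follows from the calculation, since a change of scaling shifts the LFC of all genes by about the same amount. It does not show which scaling is right. Odc1, not called, was at −0.31 (FDR = 0.0111) and −0.35 (FDR = 0.0163), and relative to the median at −0.13 and −0.11. Of the other genes that were not called, Sms and Paox changed sign under both scalings and Oaz1 under the epithelial one.

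**Figure D2:**
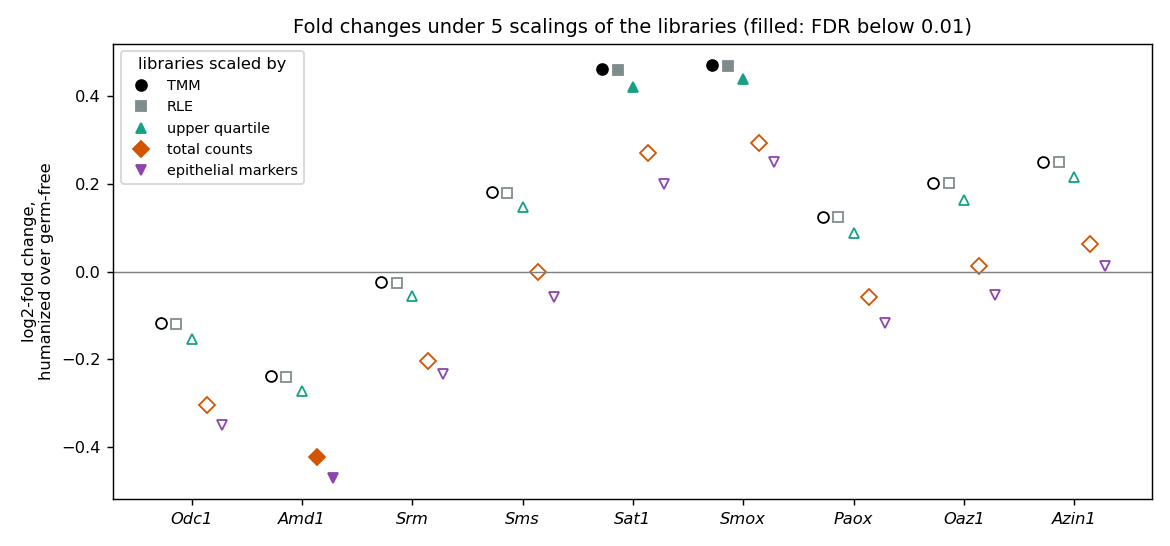
LFC of humanized over germ-free mice (vertical axis, log2) for each of the 9 genes (horizontal axis) under 5 scalings of the libraries, as symbols, filled at FDR below 0.01 in edgeR's exact test. Sat1 and Smox are filled under TMM, RLE and upper-quartile scaling, and Amd1 is filled under total counts and epithelial markers.

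RNA of cell type markers also differed between the groups. All 12 smooth muscle markers were lower in humanized mice, with a median LFC of −1.98, and their summed expression ran from 459 to 1288 RPKM in germ-free mice and from 66.7 to 459 RPKM in humanized mice. Of 12 epithelial markers, 3 were higher and none was lower, with a median LFC of 0.24 and a range from 0.05 to 0.48. Their sum ran from 4549 to 6164 RPKM in germ-free and from 5226 to 7259 RPKM in humanized mice. Of 7 markers of absorptive colonocytes, 2 were higher and 5 were not called, with LFC from −0.28 to 1.34 and a median of 0.43. Their sum ran from 4509 to 6331 RPKM in germ-free and from 8110 to 13287 RPKM in humanized mice, without overlap. In humanized mice 1 to 6 this sum was 9627, 9124, 8110, 8377, 10855 and 13287 RPKM. Sat1 had 63.7, 70.5, 60.7, 63.5, 79.5 and 83.3 RPKM in the same mice, and Smox had 6.57, 5.84, 6.59, 5.93, 4.79 and 5.77 RPKM. Whether either gene follows the sum was not tested. Of 8 macrophage markers, 1 was lower and the sums overlapped. Of 8 fibroblast markers 7 were lower, all 6 plasma cell markers were higher, and neither of the 2 liver markers tested of 5 was called. Every list held counts for all of its genes, and the epithelial markers Krt8 and Lgals4 were at 1455 and 892 RPKM in germ-free mice. The 8 markers of cycling cells gave 0 calls, and their sum ran from 52.8 to 69.2 RPKM in germ-free and from 48.5 to 79.1 RPKM in humanized mice. The part of these shifts in the results for Sat1, Smox, Amd1 and the other genes reported here was not tested. In whole tissue more cells of a type and more RNA per cell cannot be told apart.

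Among the regulators, Oaz1 had the highest expression per gene length of the 9 genes in both groups, while in CPM, without division by length, Azin1 was higher, at 264.7 against 207.4 in germ-free and 315.1 against 238.6 in humanized mice. It lies on chromosome 10 from 80826656 to 80829290 and had 80.0, 84.3, 80.4, 78.6 and 82.0 RPKM in germ-free mice, and from 78.7 RPKM over a median of 93.3 to 106.2 RPKM in humanized mice. Germ-free mice were close together, with a coefficient of variation of 2.66% against 10.5%, and humanized mouse 2 lay within the germ-free range. The difference in mean was small and not below the threshold (81.1 ± 2.15 against 93.3 ± 9.77 RPKM, LFC 0.20, standard error 0.07, FDR = 0.0568). The gene holds the microRNA gene Mir1982 within it, and a copy on another chromosome, Oaz1-ps, was counted at 14.8% of the counts of Oaz1, with an LFC of 0.21 (FDR = 0.0803).

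Azin1, on chromosome 15 from 38487430 to 38519266, resembles ornithine decarboxylase in sequence but has no enzyme activity. Germ-free mice ranged from 33.3 to 53.1 RPKM (42.5 ± 7.83) and humanized mice from 39.7 to 57.3 RPKM (50.6 ± 6.70, LFC 0.25, 95% interval −0.02 to 0.53, FDR = 0.153). Oaz2, a second antizyme, had nearly equal means, 26.5 ± 1.33 RPKM in the germ-free and 26.5 ± 1.91 RPKM in the humanized group (LFC 0.00, standard error 0.06, FDR = 1).

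By level per gene length, the order in germ-free mice was Oaz1, Odc1, Sat1, Azin1, Amd1, Srm, Smox, Paox and Sms. Of neighbours in this order, Oaz1 and Odc1, Azin1 and Amd1, Srm and Smox, and Paox and Sms had ranges that did not overlap. In humanized mice the order was Oaz1, Sat1, Odc1, Azin1, Amd1, Srm, Smox, Paox and Sms, so that Sat1 stood above Odc1. Here Azin1 and Amd1, Smox and Paox, and Paox and Sms were the neighbours whose ranges did not overlap.

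Ratios between genes within a mouse do not depend on how libraries are scaled, and 3 of them were computed. They use the same values as the tests of single genes, and Odc1 and Oaz1 each enter more than 1 ratio. The tests of the ratios are therefore not independent of those tests or of each other. Sat1 over Odc1, the acetylating enzyme over the first synthetic enzyme, was 1.06, 0.840, 0.840, 0.827 and 0.704 in germ-free mice. In humanized mice it ranged from 0.995 to 1.58, and only humanized mice 1 and 3 lay below the highest germ-free mouse. The mean was 0.854 ± 0.129 (SD, n = 5) in germ-free and 1.27 ± 0.222 (SD, n = 6) in humanized mice, a difference of 0.57 in log2 (two-sided exact permutation test, p = 0.0130, adjusted over the 3 ratios 0.0390).

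Odc1 over Oaz1, the enzyme over its antizyme, was 0.746 ± 0.0866 in germ-free mice, from 0.612 to 0.835, and 0.602 ± 0.0754 in humanized mice, from 0.502 to 0.693. Germ-free mouse 1 lay among the humanized mice and the other 4 germ-free mice lay above them. The difference was −0.31 in log2 (exact permutation test, p = 0.0260, adjusted 0.0390), and without germ-free mouse 2, 4 or 5 its exact permutation p was 0.0571, 0.0524 and 0.0571. Azin1 over Oaz1, the inhibitor over the antizyme, was 0.523 ± 0.0879 in germ-free and 0.548 ± 0.102 in humanized mice, a difference within the spread between mice (exact permutation test, p = 0.686, adjusted 0.686). All of these are ratios of RNA, and none of the proteins was measured here.

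**Figure D3:**
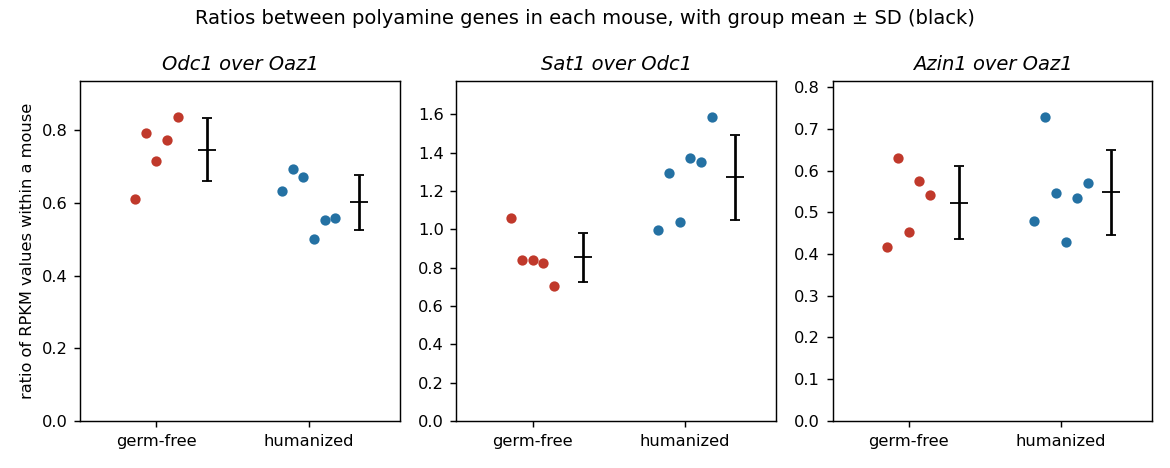
Ratio of RPKM values of paired genes within each mouse (vertical axis, from 0) for 5 germ-free (red) and 6 humanized (blue) mice, with the mean ± SD of each group in black. Sat1 over Odc1 averages 0.854 in germ-free and 1.27 in humanized mice, Odc1 over Oaz1 averages 0.746 and 0.602, and Azin1 over Oaz1 overlaps over most of its range, with germ-free mouse 1 below and humanized mouse 2 above the other group.

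The genes around the pathway were examined as 5 lists with 51 genes in all, of which 46 were tested, and 6 of these were higher and 2 lower at FDR below 0.01. These calls came to 17.4% of the listed genes tested, close to the 19.3% of all genes. The median LFC of the 46 genes was −0.01. Among 6 tested genes of other polyamine enzymes and regulators, Agmat alone was called. Agmat encodes agmatinase and was barely expressed, with 0.252 ± 0.124 RPKM in the germ-free and 0.862 ± 0.666 RPKM in the humanized group (LFC 1.76, standard error 0.55, FDR = 0.00891), and its groups overlapped. This call was lost by the quasi-likelihood test (FDR = 0.0302), with upper-quartile, total-count or epithelial scaling, with no filter (FDR = 0.0138), without any 1 of germ-free mice 1 to 5 or humanized mice 1, 2 and 6, and without both humanized mice 5 and 6 (FDR = 0.0304). Agmat was not tested where every mouse had to reach 10 counts. Sat2 (LFC −0.03, FDR = 0.936) and Azin2 (LFC −0.65, FDR = 0.0855) were both near or below 1 RPKM. Diamine oxidase, Aoc1, which degrades putrescine, was the most abundant gene of this list, with 105.5 ± 7.94 RPKM in the germ-free and 75.1 ± 29.4 RPKM in the humanized group. It ranged from 43.4 to 110.9 RPKM in humanized mice and did not pass the test (LFC −0.49, standard error 0.23, FDR = 0.104), but Aoc1 was called lower with total counts (LFC −0.69, FDR = 0.00933), epithelial scaling (LFC −0.79, FDR = 6.45e-04) and without humanized mice 5 and 6 (LFC −0.82, FDR = 1.73e-04).

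Spermidine is also the substrate from which the amino acid hypusine of the translation factor eIF5A is made. None of the 4 genes of this list was called by edgeR's exact test, and the hypusine-forming enzymes Dhps (LFC 0.02) and Dohh (LFC −0.09) had FDR values of 0.906 and 0.572. Eif5a itself, at 107.4 ± 7.76 RPKM in the germ-free and 127.9 ± 9.96 RPKM in the humanized group, fell just short of the threshold (LFC 0.25, FDR = 0.0106), and so did its paralog Eif5a2 in the other direction, at 0.546 ± 0.0787 and 0.321 ± 0.104 RPKM (LFC −0.77, FDR = 0.0111). DESeq2 called both (FDR = 0.00378 for Eif5a and 0.00535 for Eif5a2), and the exact test called Eif5a without germ-free mouse 5 or humanized mouse 4 or 5 and Eif5a2 without humanized mouse 2, 3 or 5. Eif5a had an LFC of 0.0651 (FDR = 0.557) with total counts and 0.0116 (FDR = 0.951) with epithelial scaling, and Eif5a2 had −0.94 (FDR = 0.00298) and −0.98 (FDR = 0.0105), and it was also called among genes with at least 10 counts in every mouse (FDR = 0.00513).

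Of 11 tested genes of polyamine and cationic amino acid transport, 1 was higher and 1 lower. Slc18b1, a vesicular polyamine transporter, had 8.48 ± 0.5796 RPKM in the germ-free and 10.5 ± 0.641 RPKM in the humanized group (LFC 0.30, standard error 0.06, FDR = 0.00152). The call of Slc18b1 was lost with total counts (LFC 0.12, FDR = 0.281), epithelial scaling (LFC 0.0621, FDR = 0.717) and without germ-free mouse 1 or 3. Slc7a2, a carrier of arginine and lysine, was at a low level in both groups. It had 0.270 ± 0.0243 RPKM without and 0.0635 ± 0.0305 RPKM with the microbiota (LFC −2.08, standard error 0.29, FDR = 4.73e-10). In neither gene did a mouse of either group reach the other. The lysosomal and endosomal polyamine pumps Atp13a2 (LFC 0.02, FDR = 0.908) and Atp13a3 (LFC 0.22, FDR = 0.0207) did not pass the threshold in the exact test, but DESeq2 called Atp13a3.

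Of 16 tested arginine, ornithine and proline enzymes, Nos2 and Nags were higher and Nos1 was lower. Nos2, the inducible nitric oxide synthase, makes nitric oxide from arginine. Germ-free mice had from 0.348 to 0.533 RPKM and humanized mice from 4.78 to 11.7 RPKM (LFC 3.85, standard error 0.25, FDR = 2.30e-42). Nags, which makes N-acetylglutamate for the start of citrulline synthesis, rose from 4.92 ± 0.445 to 7.62 ± 1.04 RPKM (LFC 0.63, standard error 0.10, FDR = 5.05e-06). Cps1, which starts the urea cycle, had a fitted LFC of 3.32 but did not pass the test (standard error 1.75, FDR = 0.151), and it ranged from 0.0114 to 11.2 RPKM among humanized mice. Nos1, the neuronal synthase, was at a low level, with 0.243 ± 0.0908 RPKM in the germ-free and 0.0841 ± 0.0513 RPKM in the humanized group (LFC −1.52, standard error 0.41, FDR = 0.00241). The call of Nos1 was lost by the quasi-likelihood test (FDR = 0.0164) and without germ-free mouse 2 or 4 or humanized mouse 1 or 2, and that of Nags with epithelial scaling (LFC 0.37, FDR = 0.0359). Oat, which converts ornithine towards proline and glutamate, was the most abundant gene of the list and had nearly equal means, 158.5 ± 12.5 RPKM in the germ-free and 157.1 ± 20.2 RPKM in the humanized group (LFC −0.01, 95% interval −0.21 to 0.19, FDR = 0.950).

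Of 9 tested genes of the methionine cycle and salvage, Mat2a and Ahcy were higher and none was lower. Mat2a, which makes the S-adenosylmethionine used by Amd1, rose from 106.9 ± 3.23 to 139.4 ± 10.7 RPKM (LFC 0.38, standard error 0.06, FDR = 7.75e-06), but Mat2a was not called with total counts (LFC 0.20, FDR = 0.0715) or epithelial scaling (LFC 0.15, FDR = 0.438). Ahcy, which clears S-adenosylhomocysteine after methyl transfer, rose from 16.4 ± 1.90 to 27.2 ± 3.97 RPKM (LFC 0.73, standard error 0.10, FDR = 7.46e-09). Both genes separated the groups completely. Mtap, which recycles the methylthioadenosine left by Srm and Sms, had an LFC of −0.02 (FDR = 0.948).

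**Figure D4:**
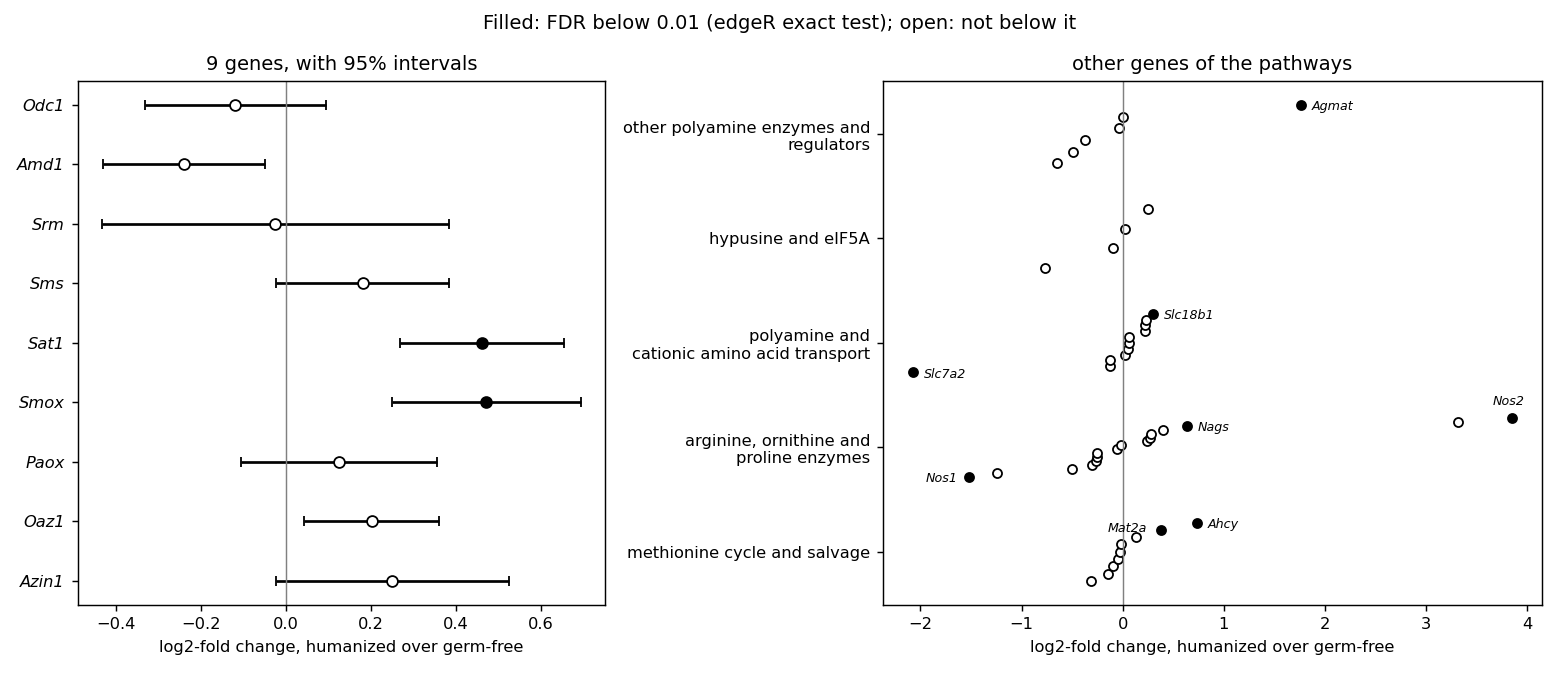
LFC of humanized over germ-free mice (horizontal axes, log2), on the left for the 9 genes with 95% intervals from edgeR's quasi-likelihood fit and on the right for the 46 tested genes of the 5 surrounding lists, filled at FDR below 0.01 in the exact test and open otherwise. Sat1 (0.46) and Smox (0.47) are filled on the left, and 8 genes are filled and named on the right.

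Genes with a pattern like that of Sat1, which had the lowest FDR of the 9 genes, were found over the 11 mice by the root mean square difference of log2 CPM profiles (TMM-normalized counts, not divided by gene length), each centred on its own mean. Among 10016 genes with a mean of at least 10 CPM in both groups, the closest was Lcorl, at 0.0605. Hook1, which links cargo to microtubules, followed at 0.0643 and Fuca2, a fucosidase, at 0.0683. Lcorl had 2.98 ± 0.185 RPKM in the germ-free and 4.097 ± 0.647 RPKM in the humanized group (LFC 0.46). Hook1 had 36.2 ± 2.06 and 51.6 ± 7.01 RPKM (LFC 0.51), and Fuca2 had 16.7 ± 0.832 and 23.9 ± 3.25 RPKM (LFC 0.52). This likeness was picked from all genes and rests largely on the difference between the groups.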

How the data were processed

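Total RNA from colonic tissue was made into unstranded libraries and sequenced in pairs of 101 bases. The authors aligned reads to mm10 with TopHat2 2.1.0 and Bowtie2 2.2.3, and counted them per gene with featureCounts (Subread 1.4.6-p5); the annotation release, the treatment of reads shared between genes and whether read pairs or single reads were counted are not given in the sources used here. The deposited values are raw counts per gene with a gene length, whose computation is not given in the sources used here and from which RPKM was computed. Reads shared by near-identical copies may be split or lost.

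Groups followed the sample labels. In R 4.3.3 with edgeR 4.0.16, genes were kept by filterByExpr at its defaults (minimum count 10), normalized by TMM and compared with the exact test over all 19863 genes kept, as the study's methods state. P-values were adjusted by Benjamini-Hochberg and called at FDR below 0.01. Standard errors and 95% intervals came from edgeR's quasi-likelihood fit. Single values and ratios were tested by a two-sided exact permutation test on log2 values. The procedure was tested on simulated data, where the exact test made more false calls than its threshold allows and than the quasi-likelihood test, and missed most genes changed by as little as Sat1 and Smox. Alternatives were the quasi-likelihood test, DESeq2 1.42.0, other scalings, filters and thresholds, thinning to the lowest total, a replicate block and leaving out mice.

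The genes and lists were chosen with earlier results of these data known. Named genes are the 9 genes, the listed genes called with a mean of at least 1 RPKM in either group, Amd2, Oaz2, Azin2 and Sat2, and the 3 genes most like the one with the lowest FDR. Agmat, Slc7a2, Nos1, Cps1, Aoc1, Oat, Eif5a, Eif5a2, Dhps, Dohh, Atp13a2, Atp13a3 and Mtap were chosen for naming after their values were seen. Some genes that the rules select are not reported here, and counts over the genes and lists leave them out. Listed genes not tested were Oaz3, Satl1, Atp13a4 and Mat1a, under the filter, and Pycr3, whose symbol was not matched. No mice of a group had libraries that agreed within sampling noise.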

Additional observations from a re-analysis of the deposited data

How the results depend on the processing

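Of the 9 genes, 2 were called higher (Sat1 and Smox), and 0 were with total counts, epithelial scaling, an absolute LFC above 0.58 or a replicate block, 2 by the quasi-likelihood test alone, and 2 to 3 without 1 mouse. The number called lower, 0, became 1 with total counts and with epithelial scaling (Amd1) and was 0 without any 1 mouse. Same-numbered mice did not deviate together (0 of 5 correlations above 0.1, and 1 of 5 mice correlated best with its own number). The replicate block was fitted with the quasi-likelihood test, so its counts are set against that test without the block, and humanized mouse 6, which has no germ-free mouse of its number, drops out of the comparison. With the block, Sat1 had an LFC of 0.40 (FDR = 0.0162) and Smox 0.48 (FDR = 0.0440) in edgeR's quasi-likelihood test, and pairs by number gave log2 differences of −0.29 for Odc1 over Oaz1 and 0.50 for Sat1 over Odc1 (exact sign-flip permutation, both p = 0.125, where 5 pairs allow no p below 0.0625). With the block, and so without humanized mouse 6, the calls of Slc18b1 and Nags were lost, while those of Agmat and Nos1 were already lost by the quasi-likelihood test. Of the listed pathway genes, 6 higher became 5 by the quasi-likelihood test and 3 with the block added, 3 with total counts, 2 with epithelial scaling and 10 at FDR below 0.05, and 4 to 9 without 1 mouse. The 2 lower became 1 by the quasi-likelihood test and 1 with the block added, 9 with total counts, 6 with epithelial scaling, 4 at FDR below 0.05, 4 without humanized mice 5 and 6, and 1 to 4 without 1 mouse. Over all genes, 1827 higher became 1401 by the quasi-likelihood test and 506 with the block added, 773 with total counts, 506 with epithelial scaling, 2780 at FDR below 0.05 and 739 with the LFC limit (1336 to 2088 without 1 mouse), and 1999 lower became 1298 by the quasi-likelihood test, 506 with the block added and 3609 with total counts (1486 to 2323 without 1 mouse). Srm, near no difference, turned positive without germ-free mouse 2 (0.02) or 5 (0.05), humanized mouse 2 (0.01), 4 (0.01) or 5 (0.0588, with −0.148 as the lowest without 1 mouse), and both humanized mice 5 and 6 (0.10). Sms was at −0.00212 and −0.0581 and Paox at −0.0577 and −0.118 with total counts and epithelial scaling, and Oaz1 at −0.0534 with the latter. Oaz1 passed the threshold without humanized mouse 2 (LFC 0.24, FDR = 0.00909 in edgeR's exact test). In log2 CPM of all mice, the exact permutation p, not adjusted over genes, was 0.0346 for Amd1 and 0.0303 for Oaz1. It was 0.301 for Odc1, 0.861 for Srm, 0.0801 for Sms, 0.208 for Paox and 0.110 for Azin1. Without 1 mouse, this p rose to at most 0.0714 for Amd1 and 0.0571 for Oaz1. In log2 CPM without 1 mouse, differences ran from −0.19 to −0.0629 for Odc1, −0.29 to −0.20 for Amd1, −0.17 to 0.0577 for Srm (0.02, 0.03 and 0.0577 where it turned), 0.13 to 0.22 for Sms, 0.0765 to 0.18 for Paox, 0.16 to 0.24 for Oaz1 and 0.18 to 0.35 for Azin1. Ratios ran from −0.38 to −0.26 for Odc1 over Oaz1, 0.50 to 0.65 for Sat1 over Odc1 and −0.0220 to 0.13 for Azin1 over Oaz1 (−0.01 and −0.0220 where it turned). The causes were not tested. RNA of whole tissue from 1 donor's microbiota gives no protein or polyamine amounts, and p-values set the difference between groups against the spread between these mice.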
